A study of Mus musculus with 9 samples.

Results

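The genes described here are 10 imprinted genes tied to growth control, Mest, Peg3, Dlk1, Plagl1, Ndn, Peg10, Meg3, H19, Cdkn1c and Grb10, chosen by name out of 49315 genes counted in each library, and all 10 were found in the count table. The 9 RNA-seq libraries came from co-cultures in which GFP+ SB28 cells, a mouse glioblastoma line that grows in C57BL/6 hosts, were kept for 2 days at equal numbers with primary astrocytes. The astrocytes were grown from the brains of newborn mito::mKate2 mice, whose Tg(CAG-mKate2) transgene is driven by the broadly active CAG promoter and marks mitochondria red, so that a tumor cell carrying mKate2 had taken up mitochondrial material from an astrocyte. From 3 separate co-cultures the study sorted astrocytes, SB28 cells without mKate2 (mKate2-) and SB28 cells with mKate2 (mKate2+), giving 3 libraries of each. All 3 groups had been through the co-culture, and there were no libraries of cells grown alone. SB28 is 1 line, and the astrocytes were glial cultures from the subventricular zone of neonates and not adult astrocytes. Total counts lay between 24454561 and 39287841 per library. Replicate 2 of the mKate2+ cells differed more from its group than any other SB28 library. Its chi-square of counts per degree of freedom was 148 and 134 against the other 2, compared with 17.3 between those. Astrocyte replicate 3 stood apart in several members. Values without a library are given below for the members where they change a result. The counts of the other lists also moved when single libraries were left out.

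An imprinted gene is transcribed mainly from the chromosome of 1 parent, under the control of DNA methylation laid down in the egg or the sperm and then kept through cell division. Many imprinted genes lie in clusters under a shared control region, and paternally expressed members often favour fetal growth while maternally expressed ones often restrain it. In the brain several of them are high in embryonic and neonatal progenitors and fall as the tissue matures. Counts of reads per gene do not separate the parental copies, so everything below is about total RNA and not about the imprint.

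Several members share a locus with one another or carry small RNAs within their transcripts. Mest holds the microRNA gene Mir335 in an intron, on the plus strand of chromosome 6 in GRCm38. Its mature forms are shown because they are made from the most abundant member; the capitals mark the seed, bases 2 to 8.
mmu-miR-335-5p (chr6:30741314-30741336): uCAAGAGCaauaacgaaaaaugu
mmu-miR-335-3p (chr6:30741354-30741375): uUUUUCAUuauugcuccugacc
These libraries were not made to capture small RNA, so a count at Mir335 is a fragment of a longer transcript. Mir335 had 7, 11 and 13 counts in the 3 astrocyte libraries and 0 in all 6 SB28 libraries. The microRNA genes within H19 (Mir675) and Meg3 (Mir770) had 0 counts in all 9 libraries. Unlike Mir335, both share bases with exons of their host on the same strand (84 in H19, 94 in Meg3). How reads shared by 2 genes were counted is not known here, so these 0 counts do not show absence.

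RefSeq promoter windows on GRCm38.p6 were at hand for 7 of the 10 members. The 250 bases before the start of Meg3, Peg3 and Mest as RefSeq places it are printed 5′ to 3′ on the gene's own strand, since these 3 genes were all much lower in the tumor cells, and the capitals mark matches to TGACGTCA, the palindrome bound by CREB-family factors, and to TATAAA or its reverse complement TTTATA, which overlap by 2 bases in Meg3.
Meg3 (chr12:109540746-109540995, plus strand): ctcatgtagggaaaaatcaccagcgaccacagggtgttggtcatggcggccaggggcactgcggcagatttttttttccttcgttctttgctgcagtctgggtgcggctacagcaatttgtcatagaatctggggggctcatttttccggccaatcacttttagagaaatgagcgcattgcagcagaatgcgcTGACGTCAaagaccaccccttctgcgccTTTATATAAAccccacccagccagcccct
Peg3 (chr7:6730420-6730669, minus strand): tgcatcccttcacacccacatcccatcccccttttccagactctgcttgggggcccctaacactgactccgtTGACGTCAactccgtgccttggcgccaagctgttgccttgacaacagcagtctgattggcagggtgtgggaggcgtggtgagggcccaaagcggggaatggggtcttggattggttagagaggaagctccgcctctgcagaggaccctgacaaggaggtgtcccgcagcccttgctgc
Mest (chr6:30737800-30738049, plus strand): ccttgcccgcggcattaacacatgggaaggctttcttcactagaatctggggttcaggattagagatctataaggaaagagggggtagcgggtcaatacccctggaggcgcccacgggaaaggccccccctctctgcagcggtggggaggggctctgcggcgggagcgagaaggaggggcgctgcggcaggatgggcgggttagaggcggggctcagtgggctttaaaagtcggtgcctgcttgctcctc
TGACGTCA, searched on both strands, began 57 bases before the printed start of Meg3 and 178 bases before that of Peg3, and was not in the windows of the other 5 members. It occurred in 1.55% of all 32851 windows. RefSeq gives a second start for Meg3, whose window (chr12:109545148-109545397) held neither motif and 0 CpG pairs, and 3 windows for Mest, of which 1 had 7 CpG pairs. The TATA letters were in the printed Meg3 window alone among the members' windows and in 12.4% of all windows. Of the windows printed, that of Mest had 14 CpG pairs, that of Meg3 10 and that of Peg3 8, against a median of 6 over all windows with quartiles of 2 and 16. Among the members whose windows are not printed, Grb10 had 8 and 40 pairs in its 2 windows, Plagl1 19, Dlk1 8 and Ndn 5. The letters were picked after the windows had been looked at, and a match does not show binding.

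In astrocytes Mest, which encodes a protein of the hydrolase fold and is widely used as a mark of paternal expression, was by far the highest of the 10, with 1008, 921 and 562 CPM, the count of a gene divided by the library's total in megareads. The same gene stood at 8.64, 5.35 and 15.2 CPM in mKate2- SB28 cells and at 8.65, 3.03 and 5.59 CPM in mKate2+ SB28 cells. Every SB28 library lay far below every astrocyte library, and in such bulk samples fewer expressing cells and less RNA per cell cannot be told apart. Mest was 85.0-fold lower in mKate2- SB28 cells, a log2 fold change of -6.41 ± 0.46 (SE, n = 3 libraries per group; edgeR quasi-likelihood test, adjusted P = 2.66e-05), and in mKate2+ SB28 cells the log2 fold change was -7.11 ± 0.46 (edgeR, adjusted P = 2.32e-05). Per kilobase of exon, Mest had 210 CPM in astrocytes, followed by Peg10 at 40.4 and Ndn at 14.1. Of the 3945 exonic bases of Mest (chr6:30723547-30748465), 912 lie opposite exons of Copg2, and reads from the 2 strands cannot be told apart where strand was not used in counting.

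**Figure D1:**
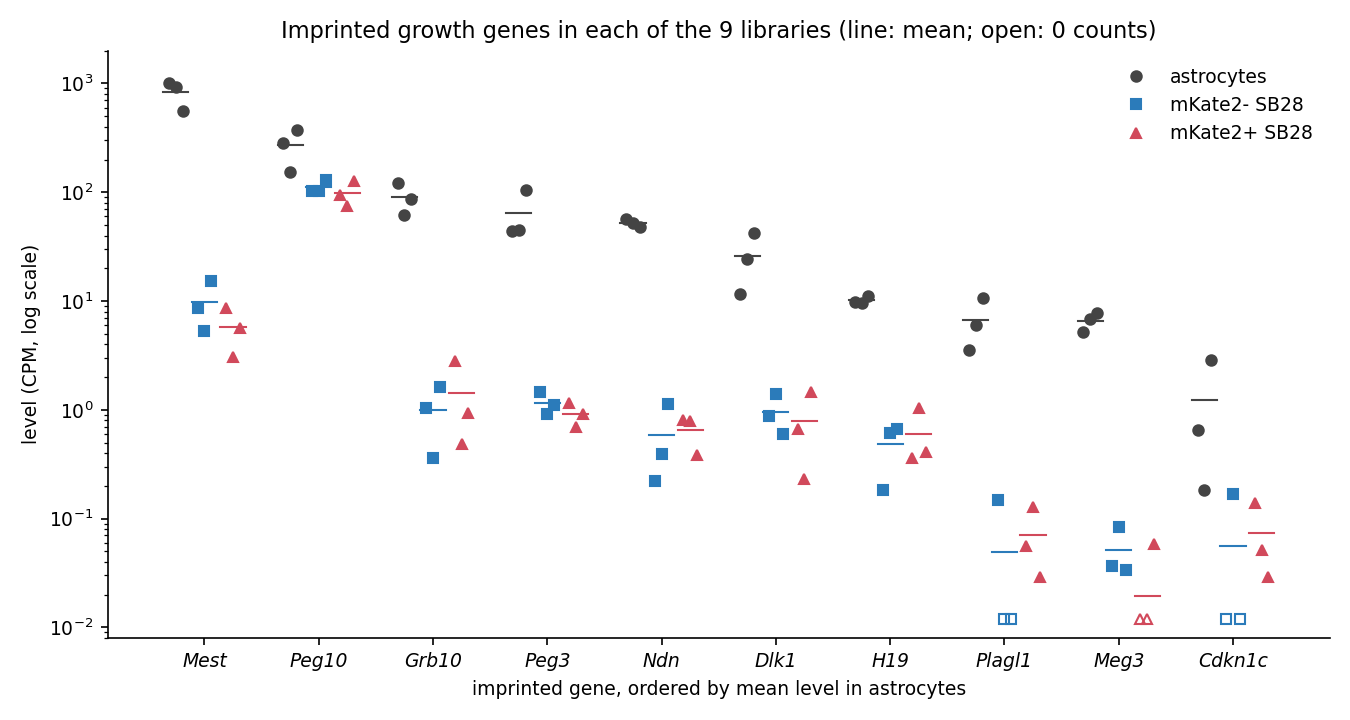
Level of each gene in CPM (count over the library total in megareads, log scale) in 3 astrocyte, 3 mKate2- SB28 and 3 mKate2+ SB28 libraries; points are libraries, lines are means and open points at the bottom edge are libraries with 0 counts. The SB28 points lie below the astrocyte points for all 10 genes, by a wide margin for every gene but Peg10 and Cdkn1c.

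The other paternally expressed members followed the same direction. Peg3, a zinc-finger protein involved in maternal care and cell death, had 43.6, 44.8 and 104 CPM in astrocytes. It was at 1.47, 0.920 and 1.11 CPM in mKate2- cells and at 1.16, 0.687 and 0.907 CPM in mKate2+ cells. The third astrocyte library stood above the other two, and the SB28 groups overlapped each other. The log2 fold change against astrocytes was -5.77 ± 0.43 (edgeR, adjusted P = 3.16e-05) in mKate2- cells and -6.05 ± 0.45 (edgeR, adjusted P = 3.97e-05) in mKate2+ cells.

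Ndn encodes necdin, a MAGE-family protein that restrains proliferation in neural cells. It was the steadiest of the paternally expressed members in astrocytes, with 56.6, 51.8 and 47.6 CPM, and reached only 0.221, 0.390 and 1.14 CPM in mKate2- cells and 0.804, 0.789 and 0.380 CPM in mKate2+ cells. The difference for Ndn was a log2 fold change of -6.46 ± 0.47 (edgeR, adjusted P = 2.66e-05) in mKate2- cells, and without mKate2- replicate 3, the highest SB28 library, it was -7.34. In mKate2+ cells it was -6.21 ± 0.30 (edgeR, adjusted P = 8.41e-06).

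Dlk1, a transmembrane protein related to Notch ligands, had 11.7, 24.5 and 41.8 CPM in astrocytes, so that its 3 libraries spanned a wider relative range than those of Ndn. In mKate2- cells it had 0.883, 1.39 and 0.603 CPM and in mKate2+ cells 0.666, 0.229 and 1.46 CPM. The log2 fold changes were -4.71 ± 0.53 (edgeR, adjusted P = 0.000189) and -4.99 ± 0.70 (edgeR, adjusted P = 0.000689), the latter reaching -5.78 without mKate2+ replicate 3. Plagl1, a zinc-finger factor that slows the cell cycle, was lower still in level, with 3.52, 5.99 and 10.8 CPM in astrocytes. In SB28 cells it amounted to 4 counts over the 3 mKate2- libraries, all in replicate 1, and 8 counts over the 3 mKate2+ libraries. Those 4 counts put the pooled mKate2- level at 0.602% of the pooled astrocyte level (95% interval 0.164 to 1.55%, exact Poisson, which covers counting error only), and the 8 put the mKate2+ level at 1.02% (0.439 to 2.02%). The log2 fold changes were -7.11 ± 0.94 (edgeR, adjusted P = 0.000395) and -6.39 ± 0.66 (edgeR, adjusted P = 0.000176), the latter -7.13 without mKate2+ replicate 2. The former was -6.47 without mKate2- replicate 2, and without mKate2- replicate 1 the mKate2- group held 0 counts.

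Peg10 departed from the rest. The gene descends from a retrotransposon and is needed for the placenta, and it had 283, 153 and 371 CPM in astrocytes. In mKate2- cells it was still at 102, 103 and 129 CPM and in mKate2+ cells at 94.5, 75.5 and 127 CPM, so that it made up most of the summed level of the 10 genes in tumor cells. It was lower in SB28 cells with no overlap of libraries, but only 2.39-fold in mKate2- cells (log2 fold change -1.26 ± 0.29; edgeR, adjusted P = 0.00663) and 2.60-fold in mKate2+ cells (-1.38 ± 0.32; edgeR, adjusted P = 0.00773). Its 95% interval in mKate2- cells, from -1.94 to -0.58, did not reach that of Peg3, from -6.78 to -4.77, the next least changed of the 4 members that also passed the filter on the mKate2- libraries. Without astrocyte replicate 3 the fold in mKate2- cells was -0.97 and no longer passed the limit of 1 (edgeR, adjusted P = 0.00734).

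Among the maternally expressed members, Meg3, a long noncoding RNA from the same cluster as Dlk1, had 5.23, 6.85 and 7.77 CPM in astrocytes. Over the 3 mKate2- libraries there were 5 counts in all and over the 3 mKate2+ libraries 2, both of them in replicate 3. The pooled level was 0.795% of the astrocyte level in mKate2- cells (95% Poisson interval 0.257 to 1.86%) and 0.270% in mKate2+ cells (0.0326 to 0.978%). The log2 fold change was -6.83 ± 0.43 (edgeR, adjusted P = 1.54e-05) and -8.16 ± 0.72 (edgeR, adjusted P = 8.53e-05), in the latter case against libraries of which 2 held 0 counts, each allowing a level of up to 0.0832 and 0.0764 CPM. Without mKate2+ replicate 3 the mKate2+ group held 0 counts, so the fitted value of -10.8 there is not a measured fold.

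H19, a maternally expressed noncoding RNA that in placenta gives rise to a growth-limiting microRNA, was the member closest in level among astrocyte libraries, at 9.73, 9.57 and 11.0 CPM. The mKate2- libraries had 0.184, 0.613 and 0.670 CPM and the mKate2+ libraries 0.361, 1.04 and 0.410 CPM. It was 20.1-fold lower in mKate2- cells (log2 fold change -4.33 ± 0.43; edgeR, adjusted P = 0.000108) and 15.5-fold lower in mKate2+ cells (-3.95 ± 0.46; edgeR, adjusted P = 0.000293), or -4.66 without mKate2+ replicate 2. Cdkn1c encodes p57, an inhibitor of cyclin-dependent kinases, and was barely present even in astrocytes, with 16, 6 and 101 counts. Its counts were 0, 6 and 0 in mKate2- cells and 5, 2 and 1 in mKate2+ cells. Only 1 of the 9 libraries exceeded 1 CPM, so it did not pass the filter on low counts. Of its exonic bases 30.7% lie opposite the gene Gm44732, and reads from the 2 cannot be told apart where strand was not used. With no filter its log2 fold change was -4.17 (edgeR, adjusted P = 0.00588) and -3.87 (edgeR, adjusted P = 0.00529), and 101 of the 123 astrocyte counts came from replicate 3.

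Grb10, an adaptor that binds the insulin and IGF1 receptors and dampens their signal, is expressed from the maternal copy in most tissues and from the paternal copy in neurons. It had 122, 61.8 and 86.2 CPM in astrocytes. The mKate2- libraries had 1.03, 0.362 and 1.61 CPM and the mKate2+ libraries 2.83, 0.484 and 0.936 CPM. The 2 SB28 groups overlapped, and each was far under the astrocytes, with log2 fold changes of -6.51 ± 0.51 (edgeR, adjusted P = 3.67e-05) and -5.94 ± 0.63 (edgeR, adjusted P = 0.000186). The latter was -6.91 without mKate2+ replicate 1.

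By count, 9 members were tested in each comparison with astrocytes and all 9 were called lower, by a log2 fold change under -1 with an adjusted P below 0.05. The background is not small: 22.4% of all 13356 genes tested were called lower in mKate2- cells and 22.8% of 13342 in mKate2+ cells. The median log2 fold change of the tested members was -6.41 in mKate2- cells and -6.05 in mKate2+ cells, against -0.04 and -0.02 over all genes tested. Of the 9, only 4 in the mKate2- comparison (Mest, Peg3, Grb10 and Peg10) and 2 in the mKate2+ comparison (Mest and Peg10) would also have passed the filter on the SB28 libraries, so the others entered through the astrocytes and had to be lower. The comparisons share the same 3 astrocyte libraries and are therefore not independent. In CPM all 10 members had their groups apart in both comparisons, where 37.3% and 37.7% of the genes tested were lower without overlap and 33.8% and 29.4% were higher. Cdkn1c was not among the genes tested. Its lowest astrocyte library and its highest mKate2- library both held 6 counts (0.183 and 0.167 CPM), so that gap came from library size alone.

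**Figure D2:**
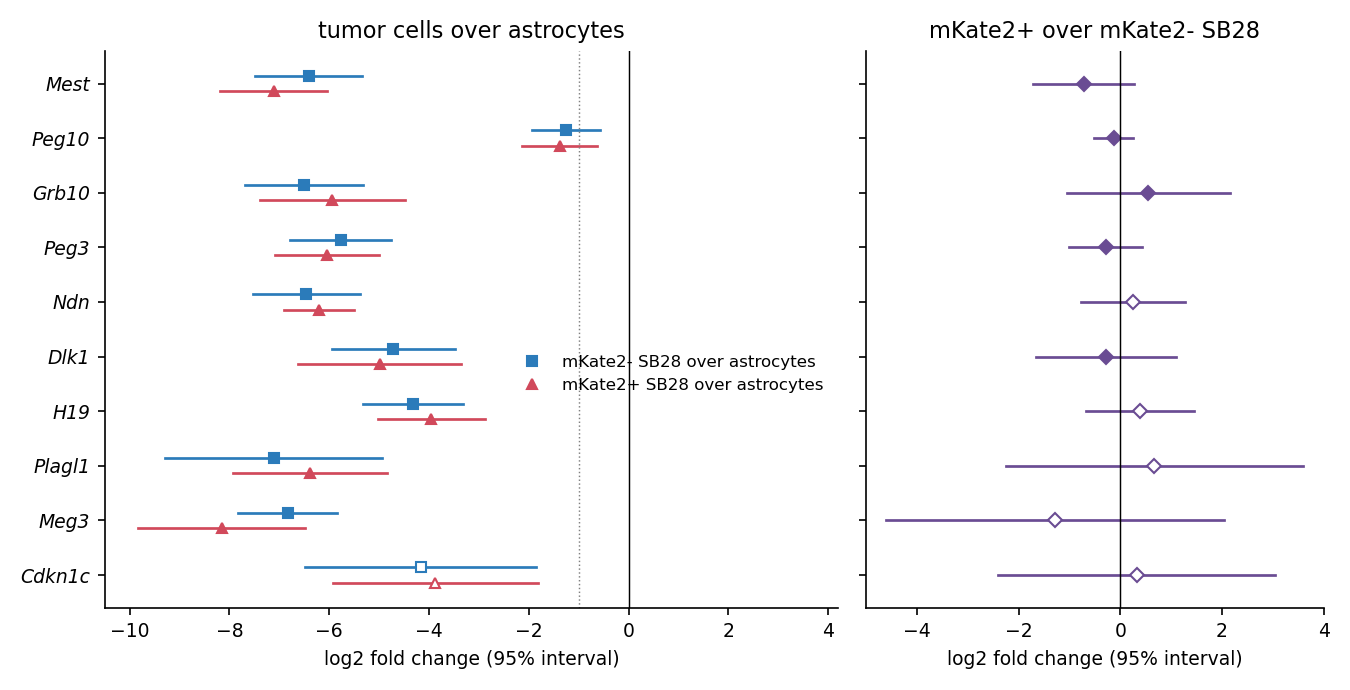
Log2 fold change with 95% interval of each gene in mKate2- and mKate2+ SB28 cells over astrocytes (left, dotted line at -1) and in mKate2+ over mKate2- SB28 cells (right). Open symbols are genes under the filter on low counts, taken from the fit without it; on the left Peg10 lies near -1.3 while the other tested genes lie between -8.16 and -3.95, and on the right every interval spans 0.

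What remained of these genes in SB28 cells was set beside what remained of markers of the astrocyte cultures. In mKate2- cells the mean level was 1.17% of the astrocyte mean for Mest, 1.11% for Grb10, 1.12% for Ndn and 1.81% for Peg3. In mKate2+ cells these shares were 0.694%, 1.57%, 1.27% and 1.43%. The astrocyte genes Slc1a3 (the glutamate transporter GLAST) and Apoe (apolipoprotein E) stood at 0.757% and 1.08% in mKate2- cells and at 0.428% and 0.932% in mKate2+ cells, while Olig1, a glial-lineage factor, stood at 0.882% and 0.488%. The astrocyte enzyme gene Aldh1l1 stood higher, at 5.15% and 5.03%, and Gja1, a gap-junction gene of the same marker list, was no lower in SB28 cells than in astrocytes. The list of 15 astrocyte markers as a whole was lower by far less than Slc1a3 and Apoe. It summed to 508, 552 and 510 CPM in mKate2- cells, against 1206, 1177 and 1918 CPM in astrocytes. Peg10 was at 41.4% and 36.7%, Dlk1 at 3.69% and 3.03% and H19 at 4.83% and 5.98%. Replicate 3 of the mKate2- cells was the highest SB28 library for Mest and Ndn and also for Slc1a3 (2.38 CPM, against 0.560 to 1.11 in the other 5 libraries) and Olig1 (6.43 CPM, against 1.12 to 2.75). It was also the highest SB28 library for Apoe and Peg10 and the highest mKate2- library for Grb10 and H19. It was not the highest for Aldh1l1, at 4.49% against 5.01% and 5.97% in the other mKate2- libraries, and it was the lowest mKate2- library for Dlk1. Peg3 was highest in mKate2- replicate 1, at 2.29% against 1.72% in replicate 3. Plagl1 and Cdkn1c had 0 counts in mKate2- replicate 3. Meg3 had 1, 3 and 1 counts in the mKate2- libraries, too few to rank them. The part of astrocyte RNA in the low SB28 levels was not tested.

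**Figure D3:**
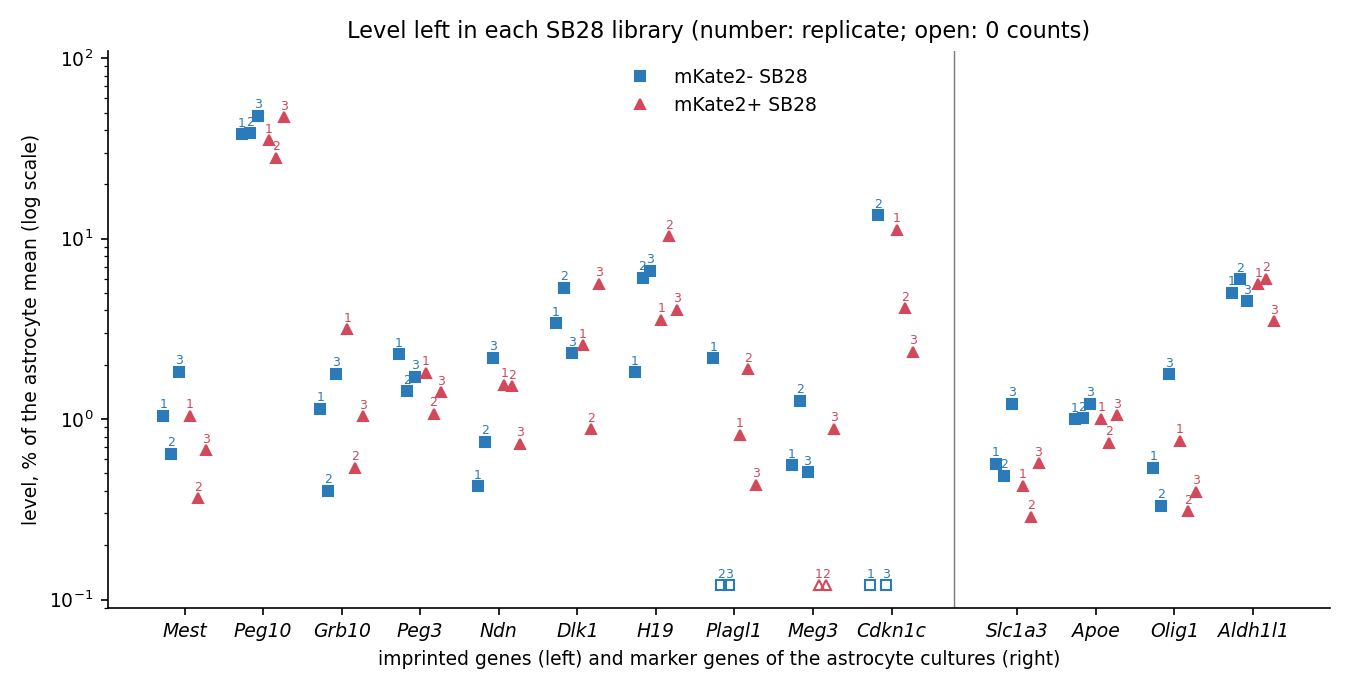
Level in each SB28 library as a percentage of the astrocyte mean (log scale) for the 10 imprinted genes and for Slc1a3, Apoe, Olig1 and Aldh1l1; numbers are replicates and open points are libraries with 0 counts. Mean shares of Mest, Ndn and Grb10 lie between 0.694% and 1.57%, those of the markers shown between 0.428% (Slc1a3) and 5.15% (Aldh1l1), and those of Peg10 at 41.4% and 36.7%. The astrocyte marker Gja1, not shown, was no lower in SB28 cells than in astrocytes.

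The astrocyte markers were present in the libraries labelled as astrocytes, where 12 of 15 exceeded a mean of 1 CPM and Apoe led with 265 CPM, but Gjb6 was at 0. The list summed to 1206, 1177 and 1918 CPM there, to 508, 552 and 510 CPM in mKate2- cells and to 536, 536 and 509 CPM in mKate2+ cells, where Gja1 led with 265 and 276 CPM and Gjb6 and Ntsr2 were at 0. The cultures also held markers of other cells. Of 11 fibroblast, meningeal and pericyte markers 8 exceeded 1 CPM in astrocytes, led by Col1a2 at 990 CPM, which SB28 cells also expressed (547 and 497 CPM), and the list summed to 1534, 1626 and 1341 CPM. Of 10 oligodendrocyte-lineage markers 5 did so, led by Olig1 at 362 CPM, with sums of 983, 542 and 612 CPM. Neuronal markers summed to 56.8, 106 and 96.8 CPM, led by Map2 at 36.6 CPM with Rbfox3 at 0, and endothelial markers to 1.96, 2.14 and 7.49 CPM, led by Cdh5 at 2.22 CPM with Cldn5 and Emcn at 0. Which of these cells carried the imprinted genes was not tested.

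Astrocyte replicate 3 stood apart in several members at once. Peg3, Dlk1, Plagl1, Cdkn1c and Peg10 were highest there, by less also Meg3 and H19, and Mest and Ndn were lowest. The same library had 59.7 CPM of the water channel Aqp4, against 5.64 and 6.82 CPM in the other two, and 4.67 CPM of the fetal growth factor Igf2, the partner of H19, against 0.0818 and 0.245 CPM. The part of this difference in the members' spread was not tested. Leaving out any single library, every tested member stayed lower than astrocytes, with adjusted P values up to 0.0320 (edgeR), and each stayed past both limits but for Peg10 in mKate2- cells as given above.

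Mitochondrial acquisition itself was addressed by comparing mKate2+ with mKate2- SB28 cells. None of the 5 members that passed the filter met the criteria of a fold change above 1.5, an unadjusted P below 0.05 and a mean count above 50, which 0.169% of 11854 genes met as lower and 0.194% as higher. Peg3, Dlk1 and Grb10 had mean counts of 34.8, 29.0 and 40.1, so they could not meet them whatever their change. Only Mest and Peg10, with mean counts of 256 and 3505, could have done so. At an adjusted P below 0.05 edgeR called 0 genes of any kind, and 2.03% had an unadjusted P below 0.05, none of them a member. The 2 tumor groups overlapped in CPM for all 10 members, where 6.67% of the genes tested were lower and 2.16% higher in mKate2+ cells without overlap. Mest was 1.65-fold lower in mKate2+ cells, with a log2 fold change of -0.72 ± 0.43 (95% interval -1.71 to 0.27; edgeR, adjusted P = 0.923). Its libraries overlapped, and leaving out 1 library moved the value between -1.11 and -0.25. Mest alone met the criteria with no filter on low counts (-0.71), with a replicate block (-0.70), without mKate2- replicate 2 (-1.01) and without mKate2+ replicate 1 (-1.11), with adjusted P between 0.440 and 0.948 in these 4 edgeR fits. Over all genes, 35 of 25423 met them as lower with no filter and 33 of 11854 with the block. Without mKate2- replicate 2 it was 28 of 11796, and without mKate2+ replicate 1 it was 70 of 11796.

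For Peg10, the most abundant member in tumor cells, the log2 fold change was -0.13 (95% interval -0.51 to 0.25; edgeR, adjusted P = 0.938), so a difference of more than about 0.51 in either direction lay outside the interval. Peg3 was at -0.29 (-1.01 to 0.43), Dlk1 at -0.29 (-1.67 to 1.09) and Grb10 at 0.55 (-1.05 to 2.15). The direction for Dlk1 turned to 0.13 without mKate2+ replicate 2, and that for Grb10 to -0.42 without mKate2+ replicate 1. Plagl1, Meg3, H19, Cdkn1c and Ndn did not pass the filter here. With no filter, H19 was at 0.38 (95% interval -0.68 to 1.44) and Ndn at 0.25 (-0.78 to 1.27), while Plagl1, Meg3 and Cdkn1c, with at most 8 counts in either tumor group, had intervals reaching beyond 2 in at least 1 direction.

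Neighbouring imprinted genes were examined within 500 kb of each member. In the Dlk1-Meg3 cluster Dlk1, Meg3, Rian and Begain were tested and called lower, but they passed the filter through the astrocyte libraries and so had to be lower; their size is given as a description, and the same holds for Plagl1 and Phactr2. The noncoding RNA Rian, 32.2 kb beyond Meg3, had 10.3, 13.4 and 13.7 CPM in astrocytes and at most 0.322 CPM in any SB28 library, with log2 fold changes of -7.48 in mKate2- and -6.20 in mKate2+ cells. Begain was lower by the same test, at -5.72 and -5.39, while Rtl1 and Mirg did not exceed 0.214 CPM in any library. Beside Plagl1, Phactr2 had 18.1 CPM in its lowest astrocyte library and at most 0.302 CPM in SB28 cells (-6.96 and -7.14). Next to Peg3, Usp29 and Zim1 did not pass the filter: Zim1 had 0.654, 0.856 and 3.96 CPM in astrocytes, and in SB28 cells both were at 0 in every library except mKate2+ replicate 1, where each had 0.0277 CPM. Zim2 and Zfp264 were at 0 throughout.

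Other loci were split. Beside Peg10, the gene Sgce starts 98 bases away on the opposite strand and did not pass the test, with log2 fold changes of -0.07 ± 0.11 and 0.03 ± 0.13 and a narrow range of 49.4 to 59.3 CPM over all 9 libraries. Casd1 was higher in SB28 cells (1.03 and 1.01), Ppp1r9a was lower (-1.25 and -1.58) and Pon3 was not called (0.71 and 0.85). Around Cdkn1c, Phlda2, a growth-limiting gene of the placenta, had at most 1.72 CPM in astrocytes and 7.41 to 11.6 CPM in SB28 cells (2.79 and 2.92; edgeR, adjusted P = 0.000187 and 0.000141), and the potassium channel gene Kcnq1 was also higher (2.14 and 2.28), though it passed the filter through the SB28 libraries alone. Cd81, between H19 and Cdkn1c and within 500 kb of both, was lower (-1.96 and -1.82), and Tssc4 beside it was not called (-0.32 and -0.19). Nap1l4 (0.09 and 0.18), Osbpl5 (0.47 and 0.47) and the noncoding RNA Kcnq1ot1 (-0.67 and -0.71) were not called, and Slc22a18 was under the filter. Copg2, which overlaps Mest, was lower by far less than Mest (-1.16 and -1.12).

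**Figure D4:**
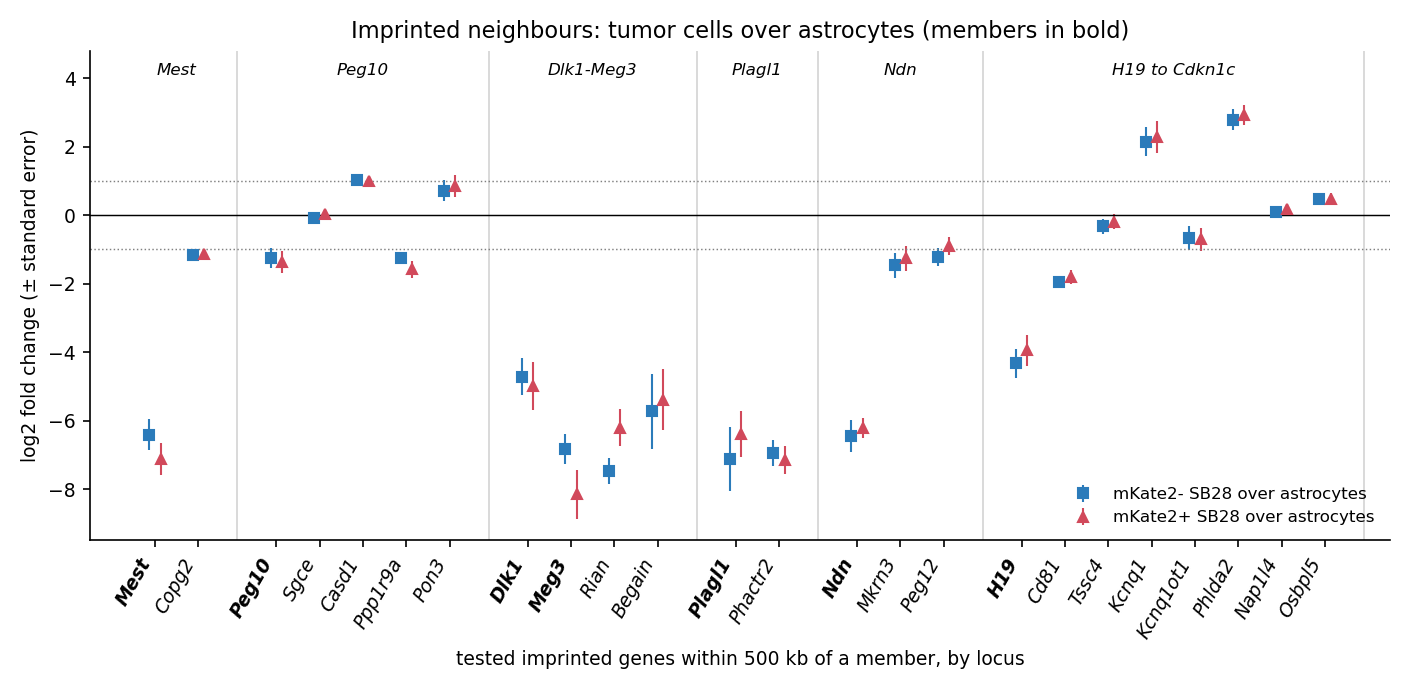
Log2 fold change with its standard error in mKate2- and mKate2+ SB28 cells over astrocytes for imprinted genes that passed the filter within 500 kb of a member, by locus, with members in bold and dotted lines at 1 and -1. The genes of the Dlk1-Meg3 and Plagl1 loci lie below -4 and passed the filter only through astrocytes, which fixed their direction, while those of the Peg10 locus lie between -1.58 and 1.03 and the tested genes beside Cdkn1c between -1.96 (Cd81) and 2.92 (Phlda2); Cdkn1c itself was under the filter, and Peg3 and Grb10 had no tested neighbour.

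Near Ndn, Mkrn3 was lower by -1.46 and -1.26, Peg12 by -1.22 and, without being called, -0.89, and Magel2 was at 0 in every library. Near H19, besides Cd81 and Tssc4, Ascl2, Tspan32 and Igf2 were under the filter. Klf14, 208 kb from Mest, was at 0 in every library, and Ddc beside Grb10 did not exceed 0.532 CPM.

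A wider list of 60 other imprinted genes was mixed. Of the 38 tested, 12 were lower, 8 higher and 18 not called in mKate2- cells, and 13 were lower, 8 higher and 17 not called in mKate2+ cells, with 11 lower and 8 higher in both. Of the lower genes, 6 of 12 and 7 of 13 passed the filter through astrocytes alone, among them Rian, Begain, Phactr2, Snrpn and Rasgrf1, and 2 of the 8 higher genes passed through SB28 cells alone, so their direction was fixed. Over all genes tested, 22.4% were lower and 11.5% higher in mKate2- cells, and 22.8% and 12.2% in mKate2+ cells. The median log2 fold change of the list was -0.50 and -0.48, against -0.04 and -0.02 over all genes. Among the lower genes with the smallest P values, Snrpn, of the locus that also holds Ndn, went from 46.9 to 70.7 CPM in astrocytes to at most 1.11 CPM in SB28 cells (-6.59 and -5.99), and Rasgrf1 was at -6.89 and -6.50. Peg13 was lower by less (-2.50 and -2.18). Besides Phlda2, Kcnq1 and Casd1, the higher ones with the smallest P values in mKate2- cells were Gatm, an enzyme of creatine synthesis (2.47 and 2.44), Herc3 (1.43 and 1.38) and Atp10a (1.14 and 1.05). In the comparison of mKate2+ with mKate2- cells, 0 of 32 tested were called by edgeR, and 0 had an unadjusted P below 0.05.

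Most genes that keep or remove DNA methylation were not called. Of 15 tested genes for imprint maintenance and DNA methylation, 2 were lower and 2 higher in mKate2- cells, and 3 lower and 2 higher in mKate2+ cells, where the shares over all genes were 22.4% and 11.5%, and 22.8% and 12.2%; the list's higher share was near that background, and its median log2 fold change was 0.24 and 0.27. Dnmt1, which copies methylation after replication, was higher at 1.26 ± 0.13 and 1.13 ± 0.21 (edgeR, adjusted P = 0.000121 and 0.00240), as was its cofactor Uhrf1 (1.62 and 1.57). The demethylating enzymes Tet1 (-3.11 and -3.99) and Tet2 (-1.42 and -1.96) were lower, Tet1 having passed the filter through astrocytes alone, the related Tet3 was not called (0.50 and 0.27), and Arid4a was called lower only in mKate2+ cells (-0.96 and -1.27), a difference that was not tested. The reader of methylated imprinted regions Zfp57 and its partner Trim28 were not called (0.82 and 0.68, 0.38 and 0.39).

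Around Cdkn1c, of 15 genes for CDK inhibitors, CDKs and G1 and S cyclins, 3 were lower and 5 higher in each comparison, with a median log2 fold change of 0.62 and 0.75. The list's lower share was near the 22.4% and 22.8% over all genes, of which 11.5% and 12.2% were higher. In mKate2- cells the lower calls fell to 2 without astrocyte replicate 3, which also left 4 higher, or without mKate2- replicate 1 or 3. In mKate2+ cells they fell to 2 without astrocyte replicate 3 or any single mKate2+ library. Cdkn1a, which encodes the inhibitor p21, had 638 CPM at the lowest in astrocytes and 74.2 to 147 CPM in SB28 cells (-2.66 and -2.52), while Cdkn2a was higher (1.09 and 1.36) and Cdkn1b was not called (-0.03 and -0.05). Cyclins Ccnd1 (-1.45 and -1.36) and Ccnd2 (-1.57 and -1.52) were lower, and Ccna2 (1.96 and 2.02), Ccne1 (1.41 in mKate2- cells), Ccne2 (1.96 and 1.84) and Cdk6 (1.27 and 1.26) were higher. Of 13 tested genes of insulin and IGF receptor signaling around Grb10, 2 were lower and 1 higher in each comparison, neither share above that over all genes (22.4% and 22.8% lower, 11.5% and 12.2% higher), with a median log2 fold change of -0.31 and -0.27. Grb14, of the same adaptor family as Grb10, was lower (-2.51 and -2.65), as was Irs2 (-1.15 and -1.17), and Irs1 was higher (1.11 and 1.03). The receptors Igf1r (-0.59 and -0.56) and Insr (-0.18 and -0.24) were not called. The list's higher call was lost without astrocyte replicate 1 in both comparisons. In mKate2+ cells it was also lost without mKate2+ replicate 3, with upper-quartile factors and with at least 10 counts in every library. Without astrocyte replicate 3 the lower calls in mKate2- cells fell to 1. None of the 14, 15 and 13 genes of these 3 lists tested between mKate2+ and mKate2- cells was called by edgeR; 1 of them, Tet2, had an unadjusted P below 0.05.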

How the data were processed

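RNA-seq counts per gene were analysed from 9 libraries, 3 each of astrocytes, mKate2- SB28 and mKate2+ SB28 cells. The authors deposited raw counts, made with Trimmomatic 0.36, STAR 2.5.2b on GRCm38 and featureCounts of Subread 1.5.2 from uniquely mapped reads. The annotation release and the strand setting are not given in the sources used here. The sort gates written in the labels give CellTrace Violet to the tumor cells, whereas the study's methods stain the astrocytes with it, so libraries were taken by their names. The 10 genes, the other gene lists and the motifs were chosen with earlier results of these data known. Gene positions and exonic lengths came from GENCODE M21.

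Each comparison used its 6 libraries, genes above 1 CPM in at least 2 of them, TMM normalization and edgeR's quasi-likelihood test (R 4.3.3, edgeR 4.0.16), with Benjamini-Hochberg adjustment over all genes tested. CPM values printed for libraries are counts over the library total in megareads. The standard error is the absolute log2 fold change divided by the square root of F. The script was tested on simulated data. Alternatives were DESeq2 1.42.0, other size factors, other filters, a fit to all 9 libraries, a replicate block and leaving out each library. Same-numbered libraries did not deviate together in every pair, and the main tests had no block. The groups were sorted from the same co-cultures, so tests without a block leave out a possible pairing. No other label separates batches. All 10 genes are named in each comparison; of the other lists, called genes were taken in order of adjusted P in mKate2- cells, up to 6 per direction, and all imprinted genes within 500 kb of a member. Igf1r, Insr, Cdkn1b, Zfp57, Trim28, Tet3, Slc1a3, Aqp4 and Nnat were named after their values were seen. Precision is limited by 3 libraries per group; intervals from counts cover counting error only. The result of 1 marker list is not reported here.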

Additional observations from a re-analysis of the deposited data

How the results depend on the processing

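With at least 10 counts required in every library, 5 members were called lower in mKate2- cells against astrocytes, since only 5 could then be tested, and 13 of the other imprinted genes in mKate2+ cells in place of 21, of 32 tested. Over all genes, that filter gave 2039 lower and 1243 higher of 12220 in mKate2- cells. In mKate2+ cells it gave 2055 lower and 1367 higher of 12216. Between mKate2+ and mKate2- cells 1 member, Mest, was called with no filter (-0.71) and with the replicate block (-0.70), and when single libraries were left out the count ranged from 0 to 1; Mest then reached -1.01 without mKate2- replicate 2 and -1.11 without mKate2+ replicate 1, with adjusted P from 0.440 to 0.948 over these 4 settings (edgeR). There Grb10 ranged from -0.42 (without mKate2+ replicate 1) to 1.08, and Dlk1 from -0.54 to 0.13 (without mKate2+ replicate 2), and the count for imprint maintenance genes ranged from 0 to 1. Peg10 in mKate2- cells against astrocytes was at -0.97 without astrocyte replicate 3. The cause was not tested.

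Leaving out 1 library gave 8 to 9 called members against astrocytes in mKate2- cells and 9 in mKate2+ cells. Over all genes, these fits called 2745 to 2921 lower in mKate2- cells and 2719 to 2952 in mKate2+ cells, of 13005 to 13300 tested. Same-numbered mKate2- and mKate2+ libraries had correlations of -0.0037, 0.136 and 0.170 between their deviations from the group mean. Those of different numbers ranged from -0.178 to 0.0820. These values do not settle whether equal numbers pair the libraries, and the main tests had no block. The block moved the genes meeting the criteria between tumor groups from 20 lower and 23 higher to 33 and 13, DESeq2 gave 21 and 62, no filter 35 and 224, and the fit to all 9 libraries 13 and 40. Leaving out 1 library there gave from 16 lower and 5 higher (without mKate2+ replicate 2) to 70 and 310 (without mKate2+ replicate 1). Upper-quartile factors moved the median of all genes to -0.12 in both comparisons with astrocytes. Depth limits Plagl1, Meg3 and Cdkn1c in tumor cells.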

Other observations

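Summed over the 10 genes, the level was 1543, 1280 and 1246 CPM in astrocytes, 114, 113 and 149 CPM in mKate2- SB28 cells and 109, 82.0 and 136 CPM in mKate2+ SB28 cells. Without Mest and Peg10, the sum of the other 8 was 253, 205 and 312 CPM in astrocytes, 3.97, 3.93 and 5.16 CPM in mKate2- cells and 6.02, 3.41 and 4.21 CPM in mKate2+ cells. The sums hold no information on cells within a library. Nnat, an imprinted gene of neural development outside the loci above, had 1.96, 3.12 and 5.35 CPM in astrocytes and 0.322 to 2.43 CPM in the tumor libraries, and was called lower in mKate2+ cells (-2.43; edgeR, adjusted P = 0.00462) but not in mKate2- cells (-1.35; edgeR, adjusted P = 0.0632); in mKate2+ cells it passed the filter through astrocytes alone, which fixed its direction, the difference between these was not tested, and the gene was named after its values were seen.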
